A study of Mus musculus with 6 samples.

Results

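The genes described here encode the respiratory chain and ATP synthase: the NADH dehydrogenase (complex I) genes whose symbols begin with Nduf, the 4 succinate dehydrogenase genes Sdha, Sdhb, Sdhc and Sdhd (complex II), the Uqcr genes and Cyc1 (complex III), Cycs for cytochrome c, the Cox4 to Cox8 families (complex IV) and the Atp5 genes (complex V). All probe sets annotated with exactly 1 such symbol were taken, which gave 184 of the 45037 probe sets that are not controls, and 92 of 18193 genes. Each gene was represented by its probe set with the highest mean. The rule takes in genes that are not subunits, since 8 Ndufaf genes encode complex I assembly factors and Cox7a2l encodes a factor of respiratory supercomplexes. It also takes in 8 tissue isoforms of complex IV. That leaves 75 genes for ordinary subunits and cytochrome c.

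The RNA hybridised to the 6 Affymetrix arrays came from V720, a line of mouse breast cancer cells whose tissue is labelled as mammary epithelium. Of these, 3 arrays held RNA from cells given vehicle and 3 held RNA from cells given 1 µM PD0332991 (palbociclib, an inhibitor of the cyclin-dependent kinases CDK4 and CDK6), both for 24 h. The design describes biological triplicates. All arrays come from 1 cell line, and the labels do not name its oncogenic driver. Of 8 luminal epithelial markers, 7 lay above the median of all genes, including Epcam (9635 ± 166 intensity on vehicle and 9662 ± 66.0 on PD0332991 arrays, SD, n = 3), Krt8, Krt18 and Cdh1, whereas Krt19 read 1.0 on all vehicle arrays.

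The respiratory chain sits in the inner mitochondrial membrane. Complexes I and II pass electrons from NADH and succinate to ubiquinone, complex III passes them on to cytochrome c, and complex IV hands them to oxygen. Complexes I, III and IV pump protons, and ATP synthase uses the returning protons to make ATP. A few subunits are encoded by mitochondrial DNA, and all genes described here are nuclear. Assembly factors build and modify complex I without staying in the finished enzyme.

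The respiratory chain and ATP synthase genes moved little after PD0332991, and the clearest differences lay in the assembly factors of complex I. Of 92 genes, 2 rose and 10 fell at a limma adjusted p under 0.05, which is 13.0% against 21.0% of all 18193 genes tested (9.81% higher and 11.2% lower). The median log2 fold change of the 92 genes was −0.04, against 0.00 (0.005) for all genes. The fold changes are differences of log2(intensity + 16), PD0332991 minus vehicle, and understate the change of dim genes. Arrays of the groups did not overlap for 49 of the 92 genes (53.3%, against 38.9% of all genes). Below 0 lay 64 of the 92, and 8893 of all 18193 genes. RNA was taken from whole cultures, so fewer cells of a kind and less RNA per cell cannot be told apart.

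Among the 75 subunits and cytochrome c, 2 genes rose and 4 fell, with log2 fold changes from −0.26 to 0.16. Their log2 fold changes had an SD over genes of 0.08, against 0.27 over all genes, and the median half-width of their 95% intervals was 0.09, against 0.16. Of the 4229 genes at or above the 5th percentile of the subunits' brightness (928 intensity), 33.2% were called, against 8.0% of the subunits. With limma's trended and robust variance prior, 23 of the 75 were called, and the bright genes were not counted in that fit. This is a description of counts and no test of the subunits as a set. The array medians of the 92 genes, relative to the vehicle mean, were −0.02, 0.01 and 0.02 on the vehicle arrays and −0.05, −0.03 and −0.05 on the PD0332991 arrays, so that the groups did not overlap. The median intensities of whole arrays lay apart too (71.3 to 72.7 on vehicle and 69.6 to 71.1 on PD0332991 arrays). Centring on array medians took the median log2 fold change of the 92 genes to −0.014 and that of all genes to 0.033.

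These counts depended on how the spread was estimated and on the number of arrays. With any 1 of the 6 arrays left out, 0 members were called higher and 4 to 6 lower, and the count over all genes fell from 3820 to between 2497 and 2683. With limma's trended and robust variance prior, 8 members were higher and 22 lower, or 32.6% of members against 28.3% of all genes.

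**Figure D1:**
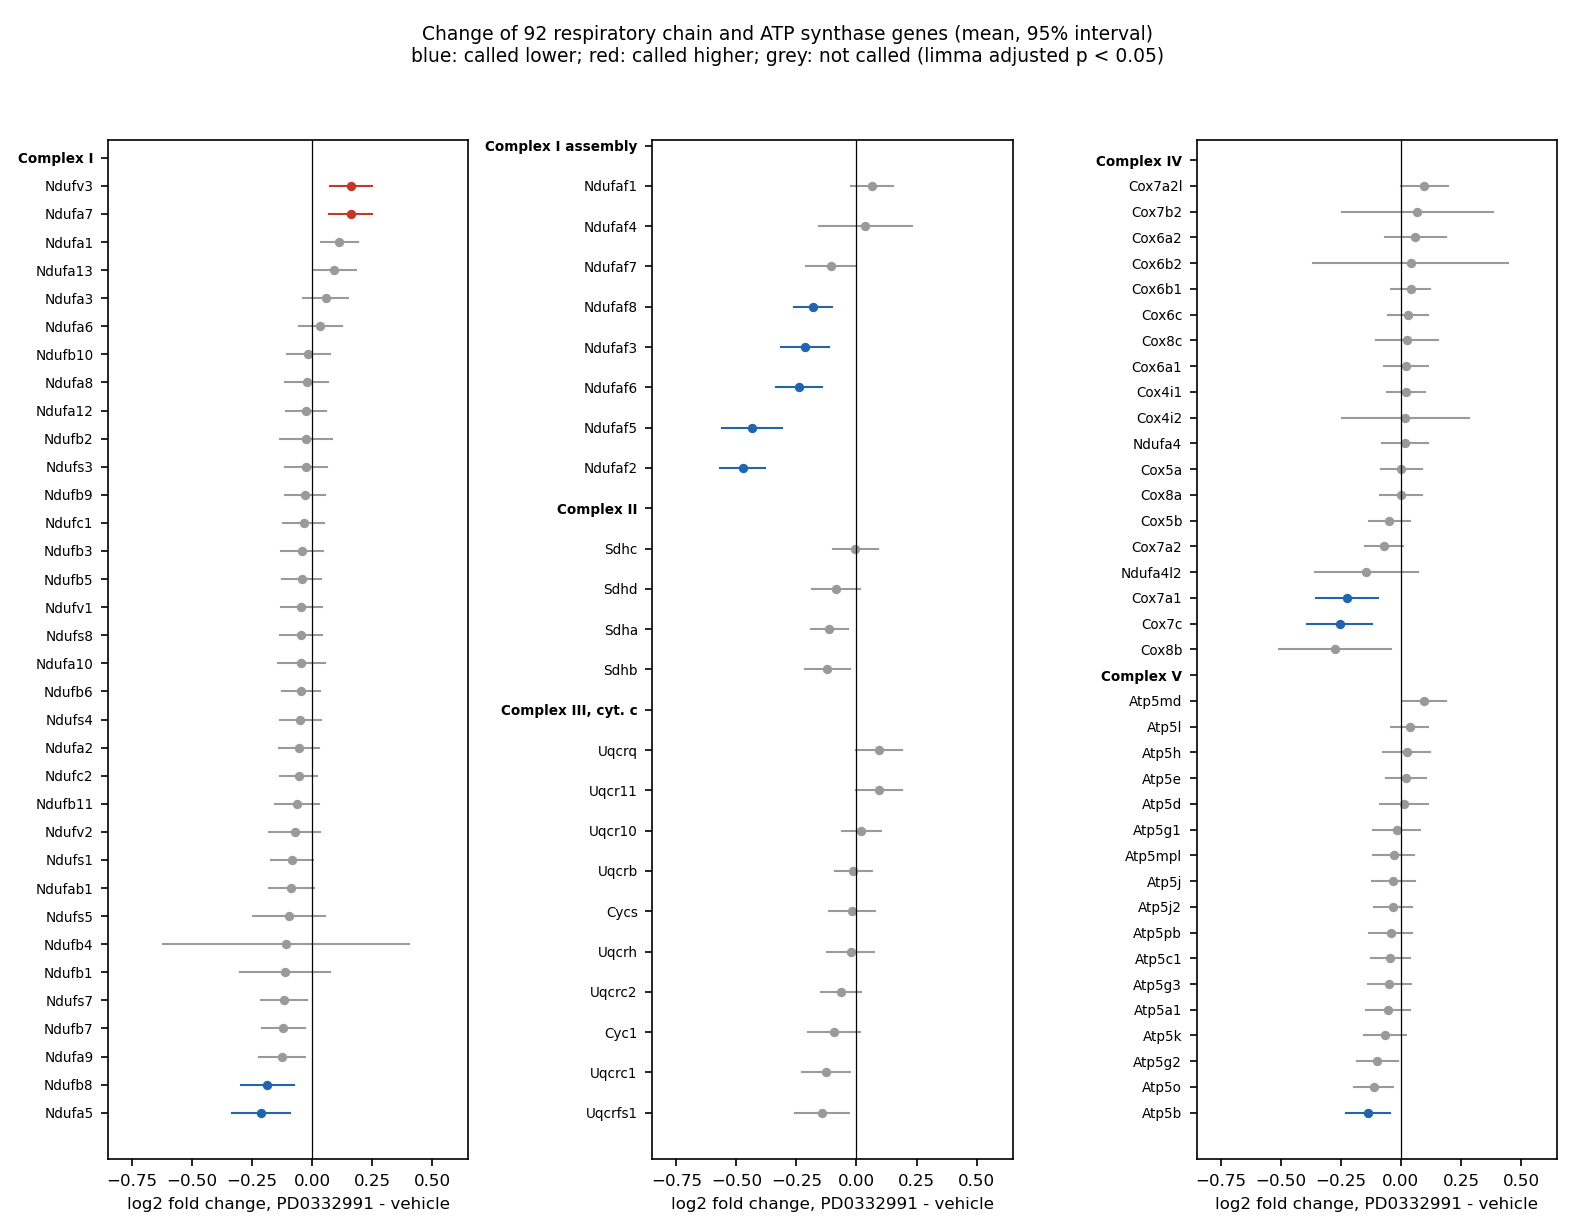
Log2 fold change (PD0332991 minus vehicle) of each of the 92 genes on the x axis, grouped by complex, with points at the estimate and lines for the 95% interval of the limma fit on 3 against 3 arrays. Most points lie close to 0, the 5 Ndufaf genes in blue lie between −0.47 and −0.18, and Ndufv3 and Ndufa7 in red lie at 0.16.

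The Ndufaf genes stood lowest among the groups. Of the 8, 5 fell and 0 rose (against 11.2% and 9.81% of all genes), the arrays of the groups did not overlap for 7 (against 38.9% of all genes), and the median log2 fold change was −0.20. The array medians of the 8 genes were −0.01, 0.00 (0.001) and 0.00 (0.002) on the vehicle arrays and −0.20, −0.20 and −0.19 on the PD0332991 arrays. Every vehicle array was thus above every PD0332991 array.

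Ndufaf2, a factor that stays with a late assembly intermediate of complex I, read 1797, 1831 and 1851 on the vehicle arrays and 1281, 1352 and 1299 on the PD0332991 arrays. The lowest vehicle array was well above the highest PD0332991 array. Ndufaf2 fell from 1826 ± 27.5 to 1311 ± 37.1 (SD, n = 3), 1.39-fold, with a log2 fold change of −0.47 (SE 0.04) and a limma adjusted p of 8.21e-04. This was the smallest adjusted p among the 92 genes, and the call held in each of the 18 other settings run.

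Ndufaf5, an enzyme that hydroxylates an arginine of the core subunit Ndufs7, read 297, 263 and 273 on the vehicle arrays and 201 on each of the PD0332991 arrays. The groups did not overlap. Ndufaf5 fell 1.35-fold, from 277.5 ± 17.3 to 200.9 ± 0.174 (SD, n = 3), with a log2 fold change of −0.44 (SE 0.05, limma adjusted p 0.00321). It too held in every other setting run (17, since its probe set is of a type that 1 setting leaves out). Ndufaf8, known as a partner that stabilises Ndufaf5, read 1433, 1397 and 1427 against 1253, 1257 and 1238. It fell by 0.18 on the log2 scale (SE 0.03, limma adjusted p 0.0141), without overlap. Its call was lost without vehicle replicate 3 (adjusted p 0.0517), and its other probe set gave −0.14 without a call.

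Ndufaf3 and Ndufaf4 act together early in the assembly of the arm that carries the ubiquinone site. Ndufaf3 read 544, 544 and 573 on the vehicle arrays and 468, 469 and 488 on the PD0332991 arrays, with no overlap. It fell by 0.21 on the log2 scale (−0.215, SE 0.04, limma adjusted p 0.0159). Its call was lost when vehicle replicate 3, PD0332991 replicate 1 or PD0332991 replicate 2 was left out (adjusted p up to 0.0577). Its partner Ndufaf4 gave discordant probe sets. The brighter read 506, 555 and 482 against 530, 570 and 485 (log2 fold change 0.04, adjusted p 0.792), and the other fell from 542 ± 15.9 to 444 ± 25.5 (−0.28, adjusted p 0.0275 in the fit over all probe sets).

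Ndufaf6, which also takes part in building that arm, read 254, 264 and 248 on the vehicle arrays and 216, 217 and 209 on the PD0332991 arrays. The groups did not overlap, and Ndufaf6 fell by 0.24 on the log2 scale (SE 0.04, limma adjusted p 0.0102), a call that held with any 1 array left out. Ndufaf7, a methyltransferase, gave −0.11 (adjusted p 0.137), and Ndufaf1, an early membrane-arm factor, gave 0.06 (adjusted p 0.279). Neither passed the threshold. Centring the arrays on the spike-in controls ended the calls of Ndufaf3, Ndufaf6 and Ndufaf8, at log2 fold changes of −0.34, −0.37 and −0.31.

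**Figure D2:**
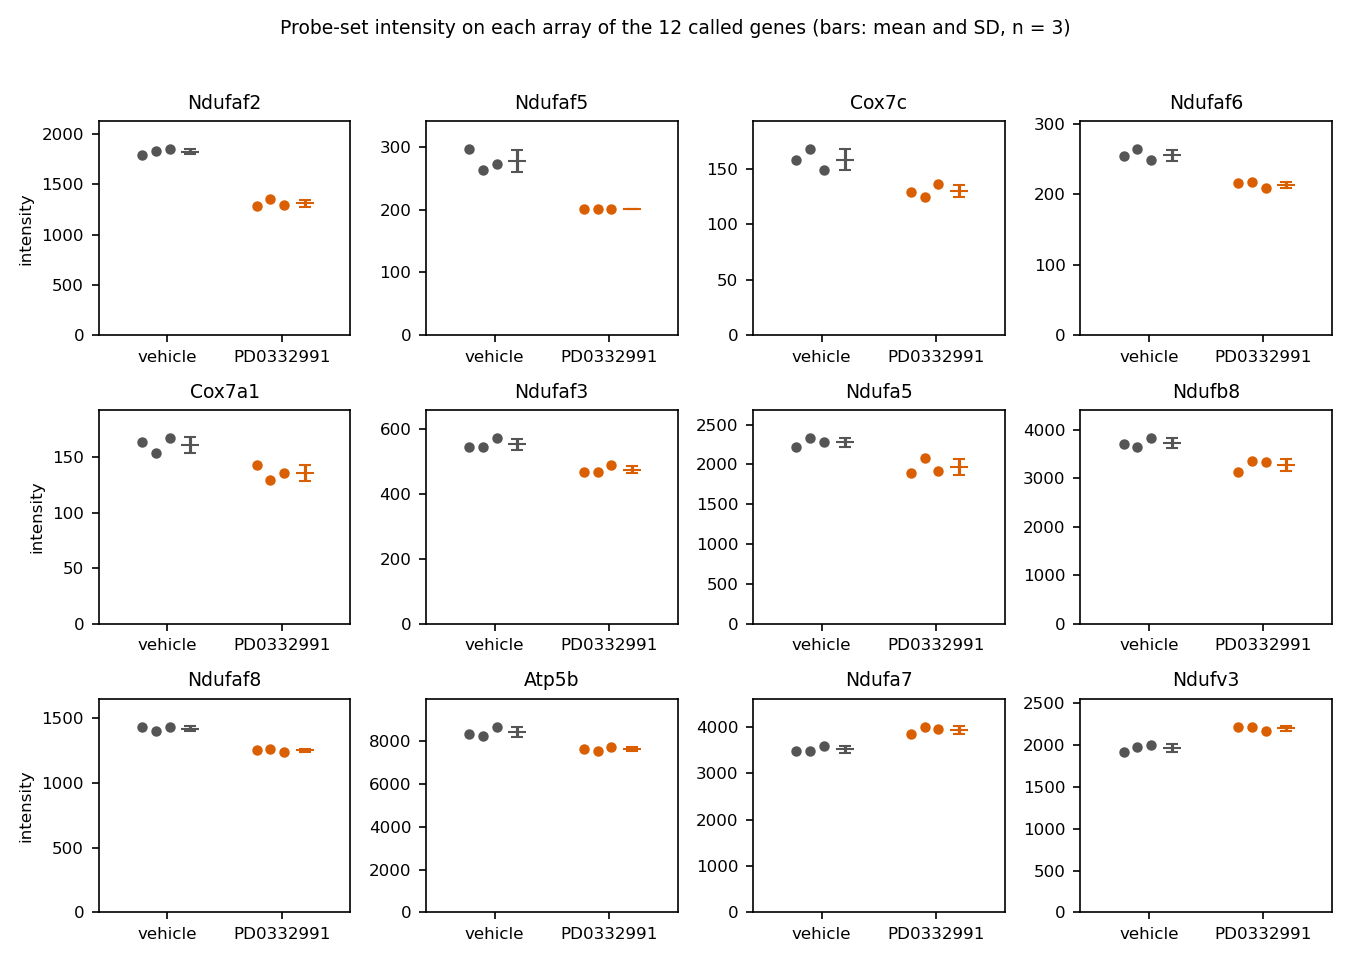
Probe-set intensity (y axis, linear, from 0) on each of the 3 vehicle and 3 PD0332991 arrays for the 12 genes that passed the threshold, with the mean and SD beside the points. In every panel the groups are separate, and Ndufaf2 and Ndufaf5 show the widest gaps (1.39-fold and 1.35-fold).

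Promoter windows from RefSeq (mouse assembly GRCm38.p6) were found for 75 of the 92 genes. The 150 bases before the annotated start, read on the gene's strand, are shown for 4 Ndufaf genes that fell, for Ndufaf4 with its discordant probe sets, and for Sdha, whose window holds 3 words of the NRF1 type. Capitals mark matches on either strand to the NRF1 words (GCGC, any base, then TGCGC), to CCAAT, or to the E2F words TTTCCCGC, TTTGGCGC, TTTCGCGC and TTTGCCGC.
Ndufaf2 (chr13:108158626-108158775, minus strand): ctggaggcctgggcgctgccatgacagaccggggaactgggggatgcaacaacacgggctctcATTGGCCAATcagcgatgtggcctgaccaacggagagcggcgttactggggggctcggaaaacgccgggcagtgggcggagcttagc
Ndufaf3 (chr9:108567437-108567586, minus strand): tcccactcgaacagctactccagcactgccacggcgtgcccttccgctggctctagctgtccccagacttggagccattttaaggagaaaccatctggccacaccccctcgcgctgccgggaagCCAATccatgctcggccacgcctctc
Ndufaf4 (chr4:24897933-24898082, plus strand): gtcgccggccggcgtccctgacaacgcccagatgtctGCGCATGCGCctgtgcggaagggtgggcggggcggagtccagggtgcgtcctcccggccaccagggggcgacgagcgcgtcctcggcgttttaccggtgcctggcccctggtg
Ndufaf5 (chr2:140170496-140170645, plus strand): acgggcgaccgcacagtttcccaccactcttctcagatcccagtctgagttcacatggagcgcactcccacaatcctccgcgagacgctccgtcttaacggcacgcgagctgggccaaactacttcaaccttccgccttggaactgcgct
Ndufaf8 (chr11:120098784-120098933, plus strand): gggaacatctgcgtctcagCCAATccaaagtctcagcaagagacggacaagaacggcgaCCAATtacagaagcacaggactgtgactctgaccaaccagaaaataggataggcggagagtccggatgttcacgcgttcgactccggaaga
Sdha (chr13:74350241-74350390, minus strand): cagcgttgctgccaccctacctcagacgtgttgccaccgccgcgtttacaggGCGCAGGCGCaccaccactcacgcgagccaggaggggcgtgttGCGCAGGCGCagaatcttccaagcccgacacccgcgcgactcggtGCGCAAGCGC

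NRF1 is a transcription factor known for activating respiratory chain genes, and E2F factors act downstream of CDK4 and CDK6. Within 250 bases before the start, the NRF1 words lay in 12 of 75 member genes (16%), against 7.01% of the 14368 genes on the arrays with a window and 4.23% of all 27025 genes with one. The 12 were Ndufa5, Ndufa8, Ndufb4, Ndufs5, Ndufaf4, Sdha, Sdhd, Cox6a1, Atp5c1, Atp5g2, Atp5h and Atp5k. Their median log2 fold change was −0.08, with 1 lower (Ndufa5) and 0 higher, and that of the 63 others was −0.04, with 8 lower and 2 higher. The E2F words lay in 2 of 75 genes (2.67%, Cox5a and Cox8a), against 3.15% of array genes, and in 0 of the 7 Ndufaf windows. Cox5a gave 0.00 (0.001) and Cox8a gave −0.00 (below 0.001 in size), neither called. CCAAT lay in 33 of 75 (44.0%, against 39.4%) and in 4 of 7 Ndufaf windows. The other words searched were CCGGAAGT (ETS type, GABP) and TTTGAA (CHR). CCGGAAGT lay in 3 of 75 genes (4.0%, against 4.98% of array genes). TTTGAA lay in 6 of 75 (8.0%, against 14.1%), and each of these words lay in 0 of the 7 Ndufaf windows. A word is a match of letters, not a bound site.

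Within complex I, the 6 core subunits that carry the electron path in the matrix arm showed no call. Their log2 fold changes had a median of −0.06 and ran from −0.12 to −0.03 (−0.025), so that all 6 lay below 0. Ndufs1, the largest iron-sulfur subunit, read 2233, 2303 and 2346 against 2187, 2135 and 2170, without overlap (−0.08, 95% interval −0.17 to 0.01). Ndufv1, which binds NADH and FMN, read 2482, 2513 and 2583 against 2427, 2481 and 2438 (−0.04, adjusted p 0.442). Ndufs7, which lies at the ubiquinone site, gave −0.12 (adjusted p 0.0947) with its brightest probe set, and its other probe set was called lower in the fit over all probe sets (−0.25, adjusted p 0.0141).

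The 28 accessory subunits of complex I held 2 genes that rose and 2 that fell, with a median of −0.04. That is 14.3% called, against 21.0% of all genes. Ndufv3, an accessory subunit at the NADH-oxidising tip, read 1909, 1977 and 1997 on the vehicle arrays and 2211, 2216 and 2163 on the PD0332991 arrays. The groups did not overlap, and Ndufv3 rose by 0.16 on the log2 scale (SE 0.04, limma adjusted p 0.0271). Ndufa7, another accessory subunit of the matrix arm, read 3475, 3472 and 3593 against 3841, 4005 and 3945. It rose by the same 0.16 (SE 0.04, limma adjusted p 0.0295) without overlap, and its 5 probe sets gave 0.14 to 0.17. Both calls were lost with any 1 array left out (adjusted p 0.0592 to 0.0861 for Ndufv3 and 0.0573 to 0.0934 for Ndufa7). Centring on the spike-in controls also ended them.

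Ndufa5, an accessory subunit of the matrix arm, read 2221, 2333 and 2285 on the vehicle arrays and 1894, 2078 and 1924 on the PD0332991 arrays. Every vehicle array was above every PD0332991 array, and Ndufa5 fell by 0.21 on the log2 scale (SE 0.05, limma adjusted p 0.0304). Its other probe set gave −0.29 (adjusted p 0.0124 over all probe sets), and the gene's call held only without PD0332991 replicate 2 when single arrays were left out (adjusted p 0.0282 to 0.0923). Ndufb8, a subunit of the membrane arm, read 3707, 3631 and 3826 against 3126, 3354 and 3329. It fell by 0.19 (SE 0.04, limma adjusted p 0.0349) without overlap. Its call was lost with any 1 array left out (adjusted p 0.0660 to 0.105), and a less bright second probe set (124 ± 7.03 on vehicle arrays) gave 0.24 without a call. Just outside the threshold lay Ndufa1, a small membrane-arm subunit, which read 6592, 6612 and 6617 against 7127, 7096 and 7236 (0.11, adjusted p 0.054).

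Complex II, which also works in the citric acid cycle, had 0 of its 4 genes called, and its median log2 fold change was −0.10. Sdha, the flavoprotein that oxidises succinate, read 3232, 3226 and 3273 on the vehicle arrays and 3015, 3010 (3009.66) and 2972 on the PD0332991 arrays. The groups did not overlap, and the change was −0.11 (SE 0.03, limma adjusted p 0.0567). Sdhb, the iron-sulfur subunit, read 2395, 2352 and 2475 against 2163, 2246 and 2220.17, also without overlap (−0.12, adjusted p 0.0749). The membrane anchors gave −0.01 (Sdhc, −0.005, overlapping) and −0.09 (Sdhd, no overlap). Sdha and Sdhb passed the threshold with a pseudocount of 64, with dim genes left out and with the trended and robust prior.

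Complex III had 0 of 9 genes called, with a median of −0.02, and its members pointed both ways although arrays of the groups did not overlap for 7 of them (38.9% of all genes). Uqcrfs1, the Rieske iron-sulfur protein, read 4568, 4783 and 4755 against 4373, 4334 and 4054 (−0.15, adjusted p 0.0782). Uqcrc1, a core protein, read 1789, 1851 and 1892 against 1659, 1666 and 1733 (−0.13, adjusted p 0.0774). Cyc1, the cytochrome that donates electrons to cytochrome c, read 3798, 3830.19 and 4084 against 3605, 3748 and 3603 (−0.10, adjusted p 0.198). The small subunits Uqcrq and Uqcr11 lay on the other side of 0, at 0.09 (0.095 and 0.094, adjusted p 0.152 and 0.153). Cytochrome c itself, the soluble carrier and a trigger of apoptosis when released, read 7859, 7978 and 7655 against 7821, 7899 and 7496. These overlapped (Cycs −0.02, adjusted p 0.808). Uqcrc1 and Uqcrfs1 passed the threshold with a pseudocount of 64, with dim genes left out and with the trended and robust prior, and Cyc1 with that prior.

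Complex IV had the median closest to 0 of the complexes, 0.01 over 10 subunits. Cox4i1, a subunit with a role in regulation by ATP, read 8979, 8949 and 9168 against 9078, 9147 and 9251 (0.02, 95% interval −0.06 to 0.10). Cox5a, a subunit next to the catalytic core, read 8648, 8562 and 8655 against 8755, 8716 and 8410.23 (0.00, 95% interval −0.08 to 0.09). Both overlapped between groups. Cox6a1 gave 0.02, Cox8a −0.00, Ndufa4 0.02 and Cox7a2 −0.07 (adjusted p 0.192), where Ndufa4 is a complex IV subunit despite its name.

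The 1 subunit called was Cox7c, a small membrane subunit, whose probe sets averaged 158 ± 9.16 and 76.4 ± 4.52 on the vehicle arrays (SD, n = 3). The brighter read 158, 168 and 149 on the vehicle arrays and 129, 125 and 136 on the PD0332991 arrays, with no overlap. Cox7c fell by 0.26 on the log2 scale (−0.255, SE 0.06, limma adjusted p 0.025), and its other probe set gave −0.30 (−0.295). Both were far dimmer than the other complex IV subunits, which averaged 5576 (Cox8a) to 10076 (Cox6a1) on the vehicle arrays. What these 2 probe sets detect was not tested. The call was lost without vehicle replicate 1, vehicle replicate 2, PD0332991 replicate 1 or PD0332991 replicate 2 (adjusted p up to 0.0795). The supercomplex factor Cox7a2l, on the other side of 0, gave 0.10 (adjusted p 0.144) without overlap.

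Of the 8 tissue isoforms of complex IV, 6 lay below the median of all genes. Cox7a1, the isoform of heart and skeletal muscle, read 164, 154 and 168 on the vehicle arrays and 143, 129 and 136 on the PD0332991 arrays. Each vehicle array exceeded each PD0332991 array, and Cox7a1 fell by 0.22 (−0.225, SE 0.05, limma adjusted p 0.0324). This call was lost without vehicle replicate 1, vehicle replicate 3, PD0332991 replicate 2 or PD0332991 replicate 3 (adjusted p up to 0.0988). The lung isoform Cox4i2 read 91.3, 106 and 88.9 against 84.7, 112 and 94.9 (0.02, adjusted p 0.928). The muscle isoform Cox8b gave −0.28 (−0.275, adjusted p 0.0995) at 33.9 ± 6.15 on vehicle arrays, and the muscle isoform Cox6a2 gave 0.06 (adjusted p 0.492). The testis isoform Cox6b2 was near the bottom of the scale (7.34 ± 4.30 and 7.82 ± 2.89, SD, n = 3), and Ndufa4l2, a paralogue induced by hypoxia, gave −0.14 (adjusted p 0.32).

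ATP synthase showed 1 call among 17 genes (5.88%, against 21.0% of all genes) and a median of −0.03. Atp5b, the catalytic beta subunit, read 8320.34, 8243 and 8687 on the vehicle arrays and 7646, 7548 and 7733 on the PD0332991 arrays. No array overlapped between groups, and Atp5b fell from 8417 ± 237 to 7643 ± 92.6 (SD, n = 3), 1.1-fold, by 0.14 on the log2 scale (SE 0.04). Its limma adjusted p of 0.0497 was the closest to the threshold among the called members, and the call was lost with any 1 array left out (0.0809 to 0.137). Its partner Atp5a1, the alpha subunit, read 6608, 6837 and 6885 against 6461, 6444 and 6694, with overlap (−0.05, adjusted p 0.395).

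The proton-carrying c ring is encoded by 3 genes that make the same mature protein. Atp5g1 read 3158, 3105 and 3245 against 3101, 3231 and 3057 (−0.02, adjusted p 0.798). Atp5g2 read 4322, 4245 and 4406 against 4055, 4074 and 3987, without overlap (−0.10, adjusted p 0.104). Atp5g3 read 8950.00, 9370.19 and 9233 against 8960.46, 8735 and 8943 (−0.05, adjusted p 0.418). None of the 3 was called, and the 9 stalk and membrane genes, 0 of them called, ran from −0.11 (Atp5o, which links the stalk to the catalytic head, adjusted p 0.0622) to 0.10 (Atp5md, adjusted p 0.123).

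In the fit over all probe sets, 16 of the 184 were called (8.70%, against 14.2% of all probe sets), 3 higher and 13 lower (6.00% and 8.19% of all). They belonged to 14 genes, and for no gene was 1 probe set higher and another lower. The 3 higher ones were the less bright probe sets of Uqcrq (109 ± 9.27 to 151 ± 9.87, 0.42, adjusted p 0.0196), Uqcr10 (215.5 ± 10.4 to 276 ± 10.3, 0.34, adjusted p 0.0133) and Atp5g1 (22.9 ± 2.55 to 31.0 ± 1.09, 0.28, adjusted p 0.0344). The brightest probe sets, which represent those genes, gave 0.09, 0.02 and −0.02. Less bright probe sets of Atp5c1 (−0.33, adjusted p 0.0164) and Ndufa12 (−0.23, adjusted p 0.0216) were lower, where the brightest gave −0.05 (−0.045) and −0.02. Of the 12 members called in the fit over genes, 7 were also called with the same probe set here. The probe sets representing Ndufv3, Ndufa7, Cox7a1, Ndufb8 and Atp5b were not called (limma adjusted p 0.0512 to 0.09 over all probe sets). None of the 5 probe sets of Ndufa7 was. Of 52 genes with several probe sets, 35 had all of them on the same side of 0. What the less bright probe sets detect was not tested.

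**Figure D3:**
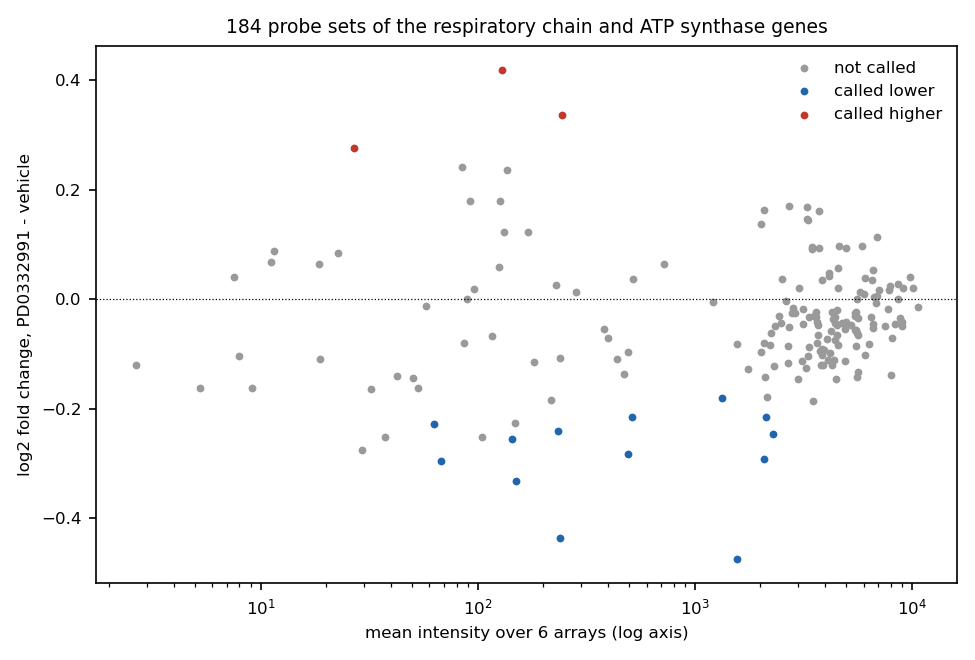
Log2 fold change (PD0332991 minus vehicle, y axis) of the 184 probe sets against their mean intensity over the 6 arrays (x axis, log scale), coloured by the limma call over all probe sets. The 3 probe sets called higher lie left of the bright cloud, at 22.9 to 215.5 on the vehicle arrays, and the lowest point is Ndufaf2 at −0.47.

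The other genes of mitochondrial assembly and expression were counted from lists. Of 40 further assembly factors measured, 3 rose and 7 fell, with a median of −0.05, where 9.81% of all genes rose and 11.2% fell. The genes named from the lists in this and the next paragraph were chosen after their values were seen. Those that rose were Sdhaf2, which attaches FAD to Sdha (948 ± 12.8 to 1147 ± 10.1, 0.27, SE 0.03, limma adjusted p 0.00353), Sdhaf1, which inserts iron-sulfur clusters into Sdhb (0.27, adjusted p 0.0361), and Surf1, a complex IV factor (0.18, adjusted p 0.0235). The lowest was Tmem186, a complex I membrane-arm factor (336 ± 16.9 to 248 ± 14.5, −0.42, adjusted p 0.00636), followed by Coa7 (−0.33, adjusted p 0.00965) and the ATP synthase factor Atpaf1 (−0.23, adjusted p 0.0053). Centring on the spike-ins ended the calls of Sdhaf2, Sdhaf1, Surf1 and Atpaf1 and left 2 factors lower (1 without vehicle replicate 1), and 12 were lower with the trended and robust prior or with dim genes left out. The calls of Surf1 and Sdhaf1 were also lost with single arrays left out (any 1 of the 6 for Surf1, any but PD0332991 replicate 3 for Sdhaf1), and 3 to 5 of these factors were then lower. With the mean of each gene's probe sets, 2 were lower, and Tmem186, Coa7 and Atpaf1 were no longer called.

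Of 76 mitochondrial ribosome genes, 24 fell and 4 rose, with a median of −0.11, against the same 11.2% and 9.81% of all genes. Mrpl18 was lowest (2344 ± 47.6 to 1750.1 ± 23.8, SD, n = 3, with a change of −0.42, SE 0.04, limma adjusted p 0.001), and Mrps6 was highest (0.22, adjusted p 0.0125). The others that rose were Mrpl17, Mrps34 and Mrpl41 (0.20, 0.17 and 0.16), and all 4 lost their calls with spike-in centring. With 1 array left out, 9 to 15 fell, and 11 did with probe sets averaged per gene. Spike-in centring left 7 lower (6 without vehicle replicate 1), whereas 39 were lower with the trended and robust prior and 41 with dim genes left out. Of 18 regulators of mitochondrial gene expression and biogenesis, 7 fell and 0 rose, with a median of −0.12 (11.2% of all genes fell). Nrf1, whose words were searched above, read 339, 366 and 335 against 232, 244 and 244 and fell by 0.50 (SE 0.05, limma adjusted p 0.00151), without overlap. The coactivators Ppargc1b (−0.45, adjusted p 0.00905) and Ppargc1a (−0.38, adjusted p 0.0117) and the mitochondrial DNA-binding factor Tfam (−0.29, adjusted p 0.00419) fell too. The calls of Nrf1, Ppargc1b, Tfam and Mrpl18 held in all 18 other settings. Of the other regulators that fell, Gabpa lost its call with any 1 array left out, and Polg without vehicle replicate 2, vehicle replicate 3, PD0332991 replicate 1 or PD0332991 replicate 2. Spike-in centring ended the calls of Tfb1m, Polg and Gabpa. In the citric acid cycle 1 of 12 genes fell (11.2% of all genes did), and the median was −0.02. The gene was Fh1, fumarase (−0.19, limma adjusted p 0.017). Its call was lost without vehicle replicate 2, vehicle replicate 3, PD0332991 replicate 1 or PD0332991 replicate 2.

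**Figure D4:**
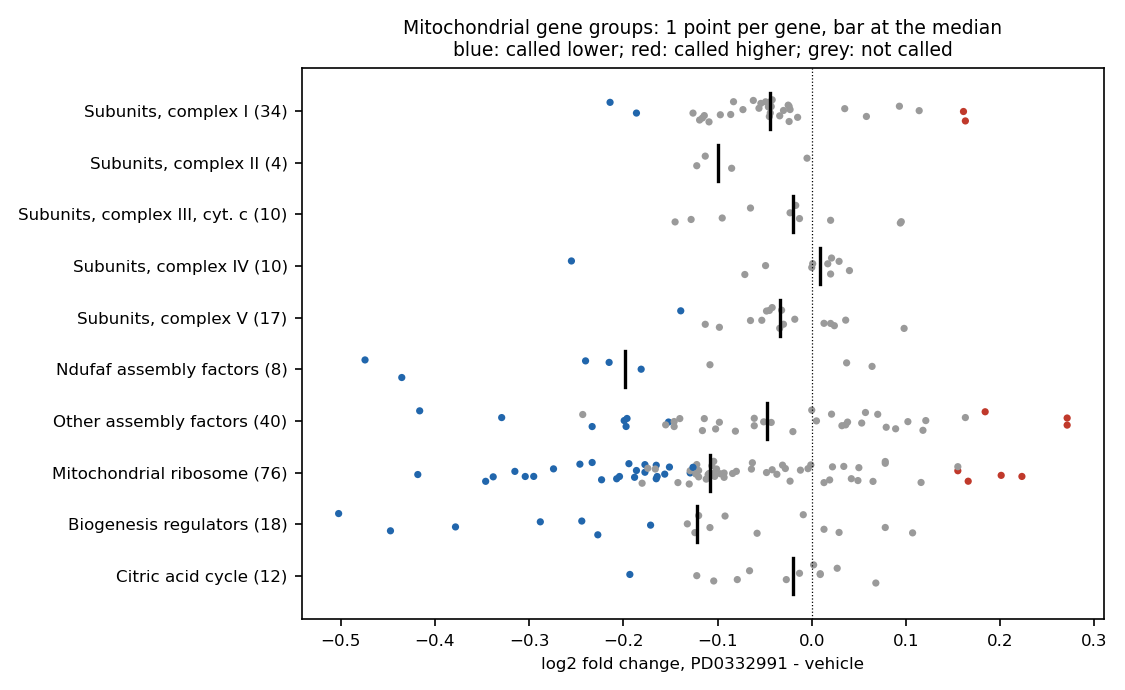
Log2 fold change (PD0332991 minus vehicle, x axis) of each gene in 10 mitochondrial groups, 1 point per gene with a bar at the group's median, coloured by the limma call. The complexes' subunits cluster near 0, and the Ndufaf genes (median −0.20), the biogenesis regulators (−0.12) and the mitochondrial ribosome (−0.11) lie further to the left.

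Of the markers of other cell types, 1 of 6 basal epithelial, 1 of 8 fibroblast and 1 of 6 leukocyte genes lay above the median of all genes, and 0 of the endothelial and adipocyte genes did. The summed intensity of 8 fibroblast markers was 356 to 403 on vehicle and 312 to 345 on PD0332991 arrays, that of 6 leukocyte markers 457 to 496 and 562 to 589, and that of 6 basal epithelial markers 635 to 693 and 680.1 to 729.7. In these lists 3 of the 6 leukocyte markers rose (Cd68, Adgre1 and Ptprc, the last, which defines them, at 11.6 and 18.2), where 9.81% of all genes rose. Spike-in centring ended these calls. With single arrays left out, Adgre1 kept its call only without vehicle replicate 2, and Ptprc lost its call without PD0332991 replicate 2 or PD0332991 replicate 3. Pdgfra among the fibroblast and Emcn among the endothelial markers fell, and Cldn4 among the luminal markers rose. Endothelial markers summed to 124 to 138 and 129 to 142, and adipocyte markers to 23.6 to 43.8 and 31.2 to 47.0. Their part in the results above was not tested.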

How the data were processed

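The authors' deposited values are linear intensities of 45101 probe sets on each of 6 arrays, and each column of values was tied to its sample through the labels (0 columns unmapped). RNA was purified on columns and biotin-labelled, per the labels' protocols. The summarisation method and scaling are not given in the sources used here, so a change in total RNA per cell may not be visible. Array medians of intensity were 71.3 to 72.7 (vehicle) and 69.6 to 71.1 (PD0332991). Correlations were 0.9969 to 0.9973 within and 0.9919 to 0.9927 between groups, and the number of arrays limits the precision.

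The 64 control probe sets were left out. The platform annotation, which can be old, gave 1 symbol to 34945 probe sets, several to 932 and none to 9160, and 10 probe sets with a rule symbol among several were left out. All 92 member genes were found in the RefSeq gene table. The deposited intensities were transformed to log2(intensity + 16) and compared with limma 3.58.1 (lmFit, then eBayes, under R 4.3.3). Two-sided p-values were adjusted by Benjamini-Hochberg over all 18193 genes (or 45037 probe sets) and called under 0.05. A gene's probe set was the one with the highest mean. Python 3.11.15 with pandas 2.3.3 made the tables and matplotlib 3.10.9 the plots. The procedure was run on simulated data with independent genes and no scaling differences between arrays, which cannot test the dependence on scaling reported here.

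The members and lists were chosen with earlier results of these data known. Named were, in each complex, up to 4 called members per direction with the smallest p (in a complex without calls, its 2 members of smallest p) and a fixed set of core and other subunits and paired isoforms (such as Cox4i1 and Cox4i2). Ndufa5, Ndufb8 and Ndufaf3, which were called but lie outside that rule, Ndufa1 and Ndufaf4, and other genes given with single values were added after their values were seen. The alternatives changed the scaling (quantile normalization, or centring on array medians or on 9 spike-in probe sets, also without vehicle replicate 1), the pseudocount (1 and 64), the probe sets (averaged per gene, or plain ones only) and the fit (replicate block, trended and robust prior, dim genes left out, a threshold of 0.01, each array left out).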

Additional observations from a re-analysis of the deposited data

How the results depend on the processing

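The spike-ins averaged 9.74, 10.03 and 9.94 (log2) on the vehicle arrays and 10.05, 10.04 and 10 on the PD0332991 arrays, so that centring on them moved the median of all genes to −0.12, or to −0.05 (−0.045) without vehicle replicate 1. The median of the 92 genes became −0.17 and −0.09 (−0.094) in these settings and −0.014 with array-median centring, but relative to all genes it stayed between −0.06 and −0.04 in all settings. Over the 92 genes, the replicate block left 0 higher and 4 lower, where the numbers did not pair the samples (correlations of 0.01, −0.05 and 0.05 between same-numbered arrays). Among probe sets the block left 0 higher and 2 lower, among the subunits 0 called, and over all genes 2047 (11.25%, against 4.35% of members). It left 9 mitochondrial ribosome genes and 3 of the other assembly factors lower, and it ended the calls of Ppargc1a, Polg, Gabpa, Micos13 and Apool. With spike-in centring, 0 genes were higher and 4 lower, as were 0 and 4 probe sets. There were 2 lower Ndufaf genes, 1 subunit called and 1715 genes in all (4.35% of members against 9.43% of all genes). Spike-in centring without vehicle replicate 1 gave 0 and 3 genes, 0 and 2 probe sets, 3 Ndufaf genes and 0 subunits. It called 1571 genes in all (8.64%, against 3.26% of members). Array-median centring gave 6 lower genes (9.78% of members called in either direction, against 20.65% of all genes). It also gave 6 higher and 8 lower probe sets, and quantile normalization gave 7 higher probe sets. A pseudocount of 64 gave 17 lower genes and 14 subunits called (21.7% of members against 24.9% of all genes). It also gave 11 higher and 23 lower probe sets. With dim genes left out there were 8 higher and 20 lower genes, 10 higher and 32 lower probe sets and 20 subunits called (32.9% of members against 52.3% of all genes). The trended and robust prior gave 8 higher and 22 lower genes (32.6% of members against 28.3% of all genes). It also gave 17 higher and 47 lower probe sets and 23 subunits called. Plain probe sets gave 8 lower probe sets, 3 lower Ndufaf genes and 10 subunits called (18.9% of members against 18.4% of all genes). At 0.01 there were 0 higher and 2 lower genes, 0 higher and 2 lower probe sets, 2 Ndufaf genes and 0 subunits. In all, 1703 genes were called at 0.01 (9.36%, against 2.17% of members). With 1 array left out, 0 genes were higher in each case and 4 to 6 lower, 0 to 2 probe sets higher and 4 to 5 lower, 3 to 5 Ndufaf genes lower, 0 to 1 subunits called and 2497 to 2683 genes called in all. Ndufb8 changed sign with the mean of its probe sets (0.026) and with plain probe sets (0.24), and Atp5g1 became 0.28 with plain probe sets, since a dim probe set then represents it. Ndufaf2 and Ndufaf5 kept their calls in every setting run, and Ndufaf6 lost its call with spike-in centring (adjusted p 0.0541) and at 0.01. The cause of the other changes was not tested. Low signal limits what can be seen of Ndufb4 and of the 6 tissue isoforms below the median of all genes.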

Other observations

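Among genes close to the members, 0 of 4 carriers of ADP, ATP and phosphate were called, and 3 lay above the median of all genes. Slc25a3, the phosphate carrier, read 10827 ± 128 with vehicle and 10834.5 ± 169 with PD0332991 (SD, n = 3), a log2 fold change of 0.001. Slc25a5, an ADP and ATP carrier, gave −0.03, and Slc25a4, its muscle-rich paralogue, gave 0.10 (limma adjusted p 0.146). Slc25a31, the germ-cell paralogue, was near the bottom of the scale (8.43 ± 5.46 and 3.27 ± 3.18), with overlapping arrays and a change of −0.33 (adjusted p 0.301). Of 8 genes that shape the cristae, 1 rose and 1 fell, where 9.81% of all genes rose and 11.2% fell. Micos13 rose (0.14, limma adjusted p 0.0442) and Apool fell (−0.21, limma adjusted p 0.04), and both are parts of the complex at the cristae junctions. Both calls were lost under spike-in centring, Micos13's with any 1 array left out and Apool's with any but vehicle replicate 2.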
